A study of Mus musculus with 6 samples.

Results

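The distal ends of the mouse autosomes, the stretches nearest to the telomere on the side away from the centromere, were examined for peaks of 5-hydroxymethylcytosine (5hmC) and 5-methylcytosine (5mC). A peak was taken as a member when it lay on chromosomes 1 to 19 and started within the last 2000000 bp before the largest peak end seen on that chromosome in any of 6 peak lists. This gave 8806 peaks of 663518 in all 6 lists and of 660520 on autosomes. By list, 738 were fibroblast 5hmC, 1521 day-3 5hmC, 2220 iPS 5hmC, 1261 fibroblast 5mC, 2218 day-3 5mC and 848 iPS 5mC peaks. The ends span 38 Mb, or 1.57% of the autosomal span, and held 1.33% of the autosomal peaks. Position alone chose the members, and the measured values entered only through the outermost peak of each autosome, which lies at the end by construction.

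The cells carry the strain label OG2-GFP/Rosa26-M2rtTA and come from a Tet1-based secondary reprogramming system named TSKM. The fibroblasts were derived from TSKM-iPS mice and were at passage 4. The day-3 cells were such fibroblasts at passage 4 that had received doxycycline for 3 days, with a change to embryonic stem cell medium. The iPS cells, made with Tet1, Sox2, Klf4 and c-Myc, were 1 line at passage 10 to 15, grown with LIF on feeder cells, which were removed by replating before collection. Thus all 3 stages share the strain label and the origin in the TSKM system. DNA of each stage was immunoprecipitated with a polyclonal 5hmC antibody and with a monoclonal 5mC antibody, with 1 library per stage and mark, so stage, medium, passage and library cannot be told apart. The read depth behind each list is unknown, and no test between stages is possible. Intervals below are 95% intervals for counting error only, and since neighbouring peaks are not independent they are narrower than the real uncertainty.

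Mouse autosomes have the centromere close to one end, so that each has a single long arm with the distal telomere at its tip. The DNA next to telomeres, the subtelomere, holds repeats and gene families as well as single genes, and the telomere repeat itself lacks CpG, the usual site of cytosine methylation in mammals. 5mC is written by DNA methyltransferases, and Tet enzymes, Tet1 among them, oxidise it to 5hmC. In mouse embryonic stem cells, DNA methylation near telomeres is known to bear on telomere length and recombination.

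The last 2 Mb held fewer peaks per Mb than the rest of the same autosomes in 5 of the 6 lists, and more in fibroblast 5hmC. For fibroblast 5hmC the density was 19.4 peaks per Mb in the ends and 17.3 in the rest, a ratio of 1.12 (1.04 to 1.20). Day-3 5hmC had 40.0 and 47.8 peaks per Mb, a ratio of 0.837 (0.796 to 0.881). iPS 5hmC had 58.4 and 72.2, a ratio of 0.809 (0.776 to 0.844). The 5mC lists all had fewer peaks in the ends. Fibroblast 5mC had 33.2 and 43.1 peaks per Mb, a ratio of 0.769 (0.727 to 0.813). Day-3 5mC had 58.4 and 68.6, a ratio of 0.850 (0.815 to 0.887), and iPS 5mC had 22.3 and 25.3, a ratio of 0.881 (0.822 to 0.943). The higher value of fibroblast 5hmC rested partly on chromosome 7, without which its ratio was 1.02 (0.944 to 1.11). With peaks of a score of at least 100, the iPS 5mC ratio turned to 1.05 (0.930 to 1.18). Without chromosome 17 it was 0.940 (0.878 to 1.01), an interval that includes 1.

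Covered length gave the same direction in each list. Peaks covered 1.69% of the ends and 1.47% of the rest in fibroblast 5hmC. The covered shares were 4.42% and 5.25% in day-3 5hmC, and 6.11% and 7.74% in iPS 5hmC. For 5mC they were 3.59% and 4.59% in fibroblasts, 6.02% and 7.04% at day 3, and 2.25% and 2.47% in iPS cells. The other ends of the same autosomes, the first 2 Mb after the smallest peak start near the centromere, had lower ratios to the remainder in each list, with intervals that met those of the distal ends in all but fibroblast 5hmC and iPS 5mC. The ratios were 0.918 in fibroblast 5hmC, 0.822 in day-3 5hmC, 0.749 in iPS 5hmC, 0.733 in fibroblast 5mC, 0.782 in day-3 5mC and 0.757 in iPS 5mC.

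The low density belonged to the outermost stretch and gave way to a dense band just inside it. In each list the last 1 Mb was the sparsest of the 20 outermost bins of 1 Mb. Fibroblast 5hmC had 301 peaks in the last 1 Mb, 437 in the next, and 717 in the one after that. iPS 5hmC had 817, 1403 and 2406 peaks in the same bins, and fibroblast 5mC had 449, 812 and 1494. Relative to the autosomal mean, the last 1 Mb stood at 0.912 in fibroblast 5hmC, 0.687 in day-3 5hmC and 0.598 in iPS 5hmC. It stood at 0.550 in fibroblast 5mC, 0.641 in day-3 5mC and 0.627 in iPS 5mC. Between 2 and 9 Mb from the end, density was 1.58 times that of the rest in day-3 5hmC, 1.90 times in fibroblast 5hmC, 1.92 times in iPS 5hmC, and 1.94 to 2.27 times in the 5mC lists. High density did not stop at 9 Mb, and all bins out to 20 Mb stayed above the autosomal mean. Day-3 5hmC was densest at 14 to 15 Mb, at 1.94 times that mean.

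**Figure D1:**
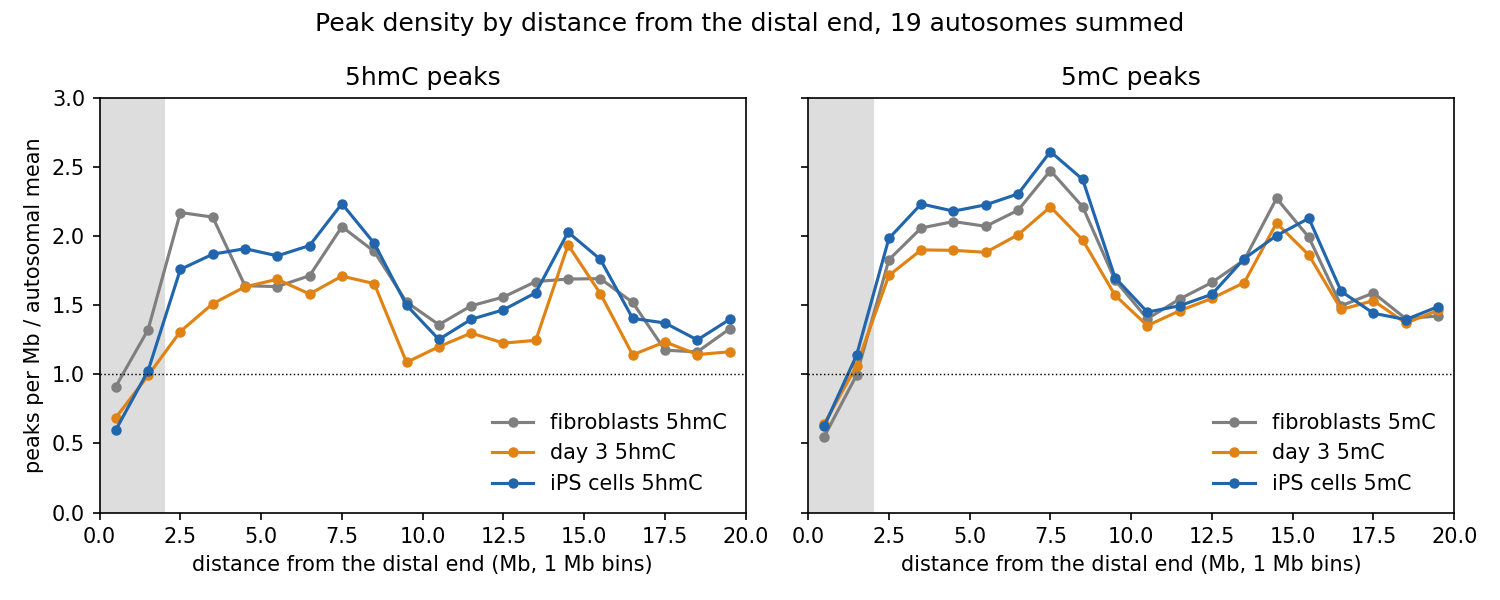
Peaks per Mb, divided by the autosomal mean of the same list, in bins of 1 Mb by distance from the distal end, summed over 19 autosomes. Lines are the 6 lists (5hmC left, 5mC right), the grey band marks the last 2 Mb, and all 6 lists are lowest in the last 1 Mb and lie above 1 beyond 2 Mb.

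The drop toward the tip was seen on most autosomes. The last 1 Mb held fewer peaks than the next on 14 to 16 of the 19 autosomes, depending on the list. The last 2 Mb were sparser than the band from 2 to 9 Mb on 16 autosomes in day-3 5hmC, on 17 in iPS 5hmC, fibroblast 5mC and day-3 5mC, and on 18 in fibroblast 5hmC and iPS 5mC. The choice of 2 Mb therefore sets the sign. With ends of 5 Mb, all 6 lists were denser in the ends than in the rest, with ratios from 1.24 in day-3 5hmC to 1.68 in fibroblast 5hmC and iPS 5mC. With ends of 1 Mb, fibroblast 5hmC turned to 0.911. The counts beside the 2 Mb limit had no common direction. In the 100 kb just inside 2 Mb the lists held 40 (fibroblast 5hmC), 115 (day-3 5hmC), 177 (iPS 5hmC), 118 (fibroblast 5mC), 186 (day-3 5mC) and 86 (iPS 5mC) peaks. In the 100 kb just outside they held 49, 102, 193, 106, 187 and 69. The iPS 5hmC peaks nearest to the limit started 1999412 bp and 2000012 bp from the end and scored 54.58 and 63.50.

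The ends differed far more from each other than from the rest. On chromosomes 4, 5, 7, 11 and 15 the end was denser than the rest of the same autosome in all 6 lists. On chromosomes 3, 6, 10, 12, 13, 14, 17 and 18 it was sparser in all 6, and the remaining 6 autosomes were mixed. Some of these ratios lay close to 1. On chromosome 5 the interval excluded 1 in iPS 5hmC alone (1.32, 1.15 to 1.51), and the other ratios were 1.03 to 1.23. The interval also included 1 on chromosome 15 in iPS 5mC (0.836 to 1.39). Among the sparser ends it did so on chromosomes 6 and 13 in fibroblast 5hmC. The number of autosomes with the denser end was 11 of 19 for fibroblast 5hmC and 6 or 7 of 19 for each other list. The median autosome had a ratio of 1.04 in fibroblast 5hmC, 0.736 in day-3 5hmC, 0.462 in iPS 5hmC, 0.381 in fibroblast 5mC, 0.471 in day-3 5mC and 0.521 in iPS 5mC. The ends of chromosomes 4, 11 and 15 alone held 16.1%, 14.4% and 10.6% of all members.

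Chromosome 4 had one of the 3 highest ratios in every list. Its end, chr4:153629355-155629354 on mm9, held 68 fibroblast 5hmC, 191 day-3 5hmC and 401 iPS 5hmC peaks, and 225, 360 and 172 5mC peaks at the same stages. The ratios to the rest of chromosome 4 were 1.95, 2.03 and 2.58 for 5hmC and 2.46, 2.49 and 3.15 for 5mC. Among the 76 windows of 2 Mb on this chromosome, the end ranked from place 5 in iPS 5mC to place 10 in the other lists. In the gene order of the RefSeq table for GRCm38.p6, another build than that of the peaks, the last protein-coding genes of chromosome 4 are Klhl17, Noc2l, Samd11 and Vmn2r129, a vomeronasal receptor gene. Peaks were not assigned to genes, as mm9 gene models were not used here. The gene names only say where an end lies.

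Chromosomes 11, 15, 7 and 2 also ranked among the highest. The end of chromosome 11 held 45, 242 and 312 5hmC peaks in fibroblasts, day-3 and iPS cells, with ratios of 1.04, 1.91 and 1.54. Its 5mC peaks numbered 212, 324 and 134, with ratios of 1.77, 1.73 and 1.96. In fibroblast 5hmC alone did the interval at this end, 0.760 to 1.402, include a ratio of 1. The end of chromosome 15 held 65, 186 and 244 5hmC peaks, with ratios of 1.83, 1.84 and 1.65, and 119, 253 and 64 5mC peaks, with ratios of 1.22, 1.69 and 1.09. The end of chromosome 2 had its highest ratio, 1.85, in iPS 5mC with 95 peaks, and its lowest, 0.772, in day-3 5hmC with 77 peaks.

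Fibroblast 5hmC had its own order at the top. Its highest ratio was on chromosome 7, where 101 peaks in the end gave 50.5 per Mb against 18.0 in the rest, a ratio of 2.80, and the end ranked 2 among 74 windows. In the other lists the chromosome 7 end had ratios of 1.395 to 1.60 and ranked 21 or 22. The next highest was chromosome 16, with 65 peaks, a ratio of 2.14 and rank 3 among 47 windows. The same end held 41 day-3 5hmC peaks, a ratio of 0.451, and 127 iPS 5hmC peaks, a ratio of 1.00. Chromosome 19 ranked 8 of 29 windows in fibroblast 5hmC, with 43 peaks, and 20 to 26 in the other lists. In the GRCm38.p6 gene order chromosome 7 ends in Smim38, Tpcn2, Mrgprf and Mrgprd. Tpcn2 encodes a cation channel of endolysosomes, and Mrgprf and Mrgprd encode Mas-related G protein-coupled receptors.

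The sparsest ends held few peaks of either mark. The end of chromosome 17 held 10 fibroblast 5hmC, 1 day-3 5hmC and 11 iPS 5hmC peaks. Of 5mC it held 2 fibroblast, 5 day-3 and 0 iPS peaks, where a count of 0 allows up to 3 peaks, or 1.50 per Mb. The rest of chromosome 17 had 55.9 day-3 5hmC and 32.5 iPS 5mC peaks per Mb. The end of chromosome 18 held 8, 9 and 10 5hmC peaks and 4, 13 and 1 5mC peaks at the 3 stages, and that of chromosome 3 held 9, 16 and 13 5hmC peaks and 4, 16 and 4 5mC peaks. Chromosomes 17 and 18 had one of the 3 lowest ratios in all 6 lists, and chromosome 3 in 5 of them.

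**Figure D2:**
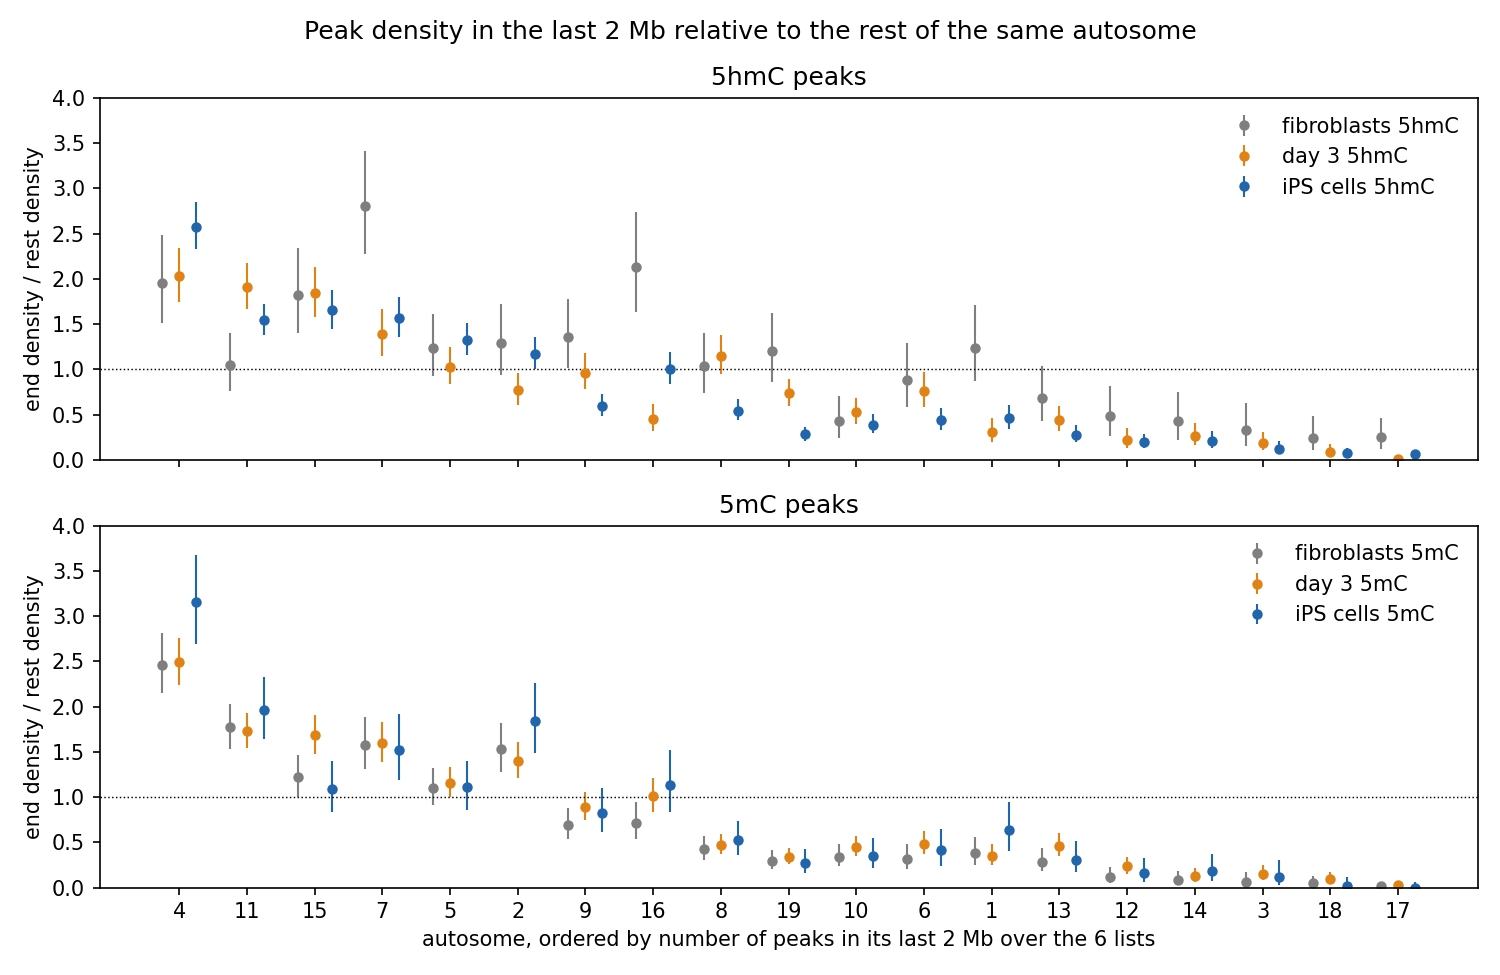
Ratio of peaks per Mb in the last 2 Mb to peaks per Mb in the rest of the same autosome, by autosome, for 5hmC (top) and 5mC (bottom). Points are single libraries and bars are exact 95% intervals for counting error. The points of chromosomes 4, 11, 15, 7 and 5 lie above 1 in all 6 lists, while those of chromosomes 3, 17 and 18 lie far below. For chromosome 5 the bars include 1 in all lists but iPS 5hmC.

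The order of the autosomes was shared between lists to different degrees. Across the 19 autosomes, Spearman's rho of the end-to-rest ratios was 0.984 between fibroblast and iPS 5mC and 0.981 between iPS 5hmC and fibroblast 5mC. The pairs with fibroblast 5hmC ranged from 0.730 with day-3 5hmC to 0.879 with iPS 5hmC, and day-3 5hmC with iPS 5mC had 0.858. These describe the lists only, since the autosomes share libraries and sequence composition.

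From fibroblasts to later stages the 5hmC lists lengthened less in the ends than elsewhere. From fibroblasts to day 3 the number of 5hmC peaks changed by a factor of 2.06 in the ends and 2.76 in the rest, and the end fold was the lower on 14 of 19 autosomes. From fibroblasts to iPS cells the folds were 3.01 and 4.16, with the end fold lower on 16 of 19 autosomes. Between day 3 and iPS cells the factors were 1.46 and 1.51, lower in the end on 12 of 19. The end fold of this step was 0.967 times that of the rest (0.905 to 1.03), an interval that includes equal folds. The 5mC lists went the other way. From fibroblasts to day 3 the folds were 1.76 in the ends and 1.59 in the rest, with the end fold lower on 3 of 19 autosomes. With ends of 5 Mb this turned, the end fold being 0.955 times that of the rest. From fibroblasts to iPS cells they were 0.672 and 0.587, lower on 5 of 19, so the shortening of the 5mC list was smaller in the ends. Between day 3 and iPS cells the folds were 0.382 and 0.369, while the end fold was lower on 12 of 19 autosomes. That small pooled difference therefore ran against most autosomes. The end fold was 1.04 times that of the rest (0.956 to 1.12), an interval that also includes equal folds. For 5hmC from day 3 to iPS cells, ends of 5 Mb also turned the direction, with an end fold 1.18 times that of the rest.

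The balance of the marks in the ends shifted accordingly. In fibroblasts there were 0.585 5hmC peaks per 5mC peak in the ends and 0.402 in the rest, and 10 of 19 ends had more 5hmC than 5mC peaks. At day 3 the values were 0.686 and 0.696, with more 5hmC in 4 of 19 ends. In iPS cells they were 2.62 and 2.85, and all 19 ends had more 5hmC than 5mC peaks. In the rest of each autosome 5hmC peaks were the fewer in fibroblasts and at day 3, and the more numerous in iPS cells. Some of the 10 fibroblast ends held few peaks, with 10 5hmC and 2 5mC peaks on chromosome 17 and 8 and 4 on chromosome 18.

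Windows of 100 kb counted back from each end were compared between stages by covered length. Among 380 such windows, 5hmC covered more base pairs in iPS cells than in fibroblasts in 224 and fewer in 85. This is 72.5% of those that differed (67.3 to 77.2), against 79.7% in the rest of the autosomes. For 5mC, 54 windows had more and 197 fewer, or 21.5% with more (16.9 to 27.0), against 14.0% in the rest. From fibroblasts to day 3, 60.6% of the differing end windows had more 5hmC and 72.8% of those in the rest. For 5mC the same step gave more coverage in 91.2% of the differing end windows (87.5 to 94.0) and 92.0% of those in the rest. This share counts only the direction of change, so it cannot show a larger fold. In covered length, 5mC rose from 3.59% to 6.02% of the ends and from 4.59% to 7.04% of the rest. In 40 of the 380 windows no list had a covered base, a share of 10.5% that lay near the 10.9% of the rest.

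The largest gains of 5hmC from fibroblasts to iPS cells lay on chromosomes 11 and 4. At chr11:120056633-120156632, 1600 to 1700 kb from the end, peaks of fibroblast 5hmC covered 2.83 kb, those of day 3 51.3 kb and those of iPS cells 51.2 kb. 5mC covered 27.3 kb, 33.3 kb and 21.9 kb there. At chr11:119856633-119956632 5hmC covered 4.58 kb, 22.3 kb and 45.97 kb. This window also had one of the 3 largest losses of 5mC, which covered 37.3 kb, 49.8 kb and 24.4 kb at the 3 stages. At chr4:154529355-154629354 5hmC covered 2.96 kb, 48.5 kb and 43.2 kb, and 5mC 13.6 kb, 24.4 kb and 10.9 kb. In the first window and in that of chromosome 4, day-3 coverage was at or above the iPS value, and in the other one it was below.

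Losses of 5hmC in the ends were small. The largest was at chr7:151817108-151917107, where 5hmC covered 11.4 kb, 4.02 kb and 8.39 kb at the 3 stages. The 11.4 kb was also the highest fibroblast 5hmC value in any end window, against 51.3 kb and 51.2 kb as the highest day-3 and iPS values. The next losses were at chr9:123159385-123259384, from 3.28 kb to 0.652 kb, and at chr14:123976854-124076853, from 2.945 kb to 0.450 kb.

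The largest losses of 5mC were bigger than its gains. At chr15:101983562-102083561 5mC covered 18.3 kb, 37.96 kb and 4.80 kb in stage order, while 5hmC covered 4.48 kb, 24.1 kb and 27.85 kb. At chr4:154629355-154729354 5mC covered 22.9 kb, 31.6 kb and 10.6 kb, and 5hmC 2.58 kb, 16.9 kb and 34.1 kb. The largest gain of 5mC was at chr14:123276854-123376853, with 1.745 kb, 5.105 kb and 4.75 kb in stage order, and 5hmC covered 1.12 kb, 4.77 kb and 5.57 kb there. The other gains were at chr4:154029355-154129354, from 8.45 kb to 11.1 kb, and at chr16:97467045-97567044, from 0.524 kb to 2.86 kb.

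**Figure D3:**
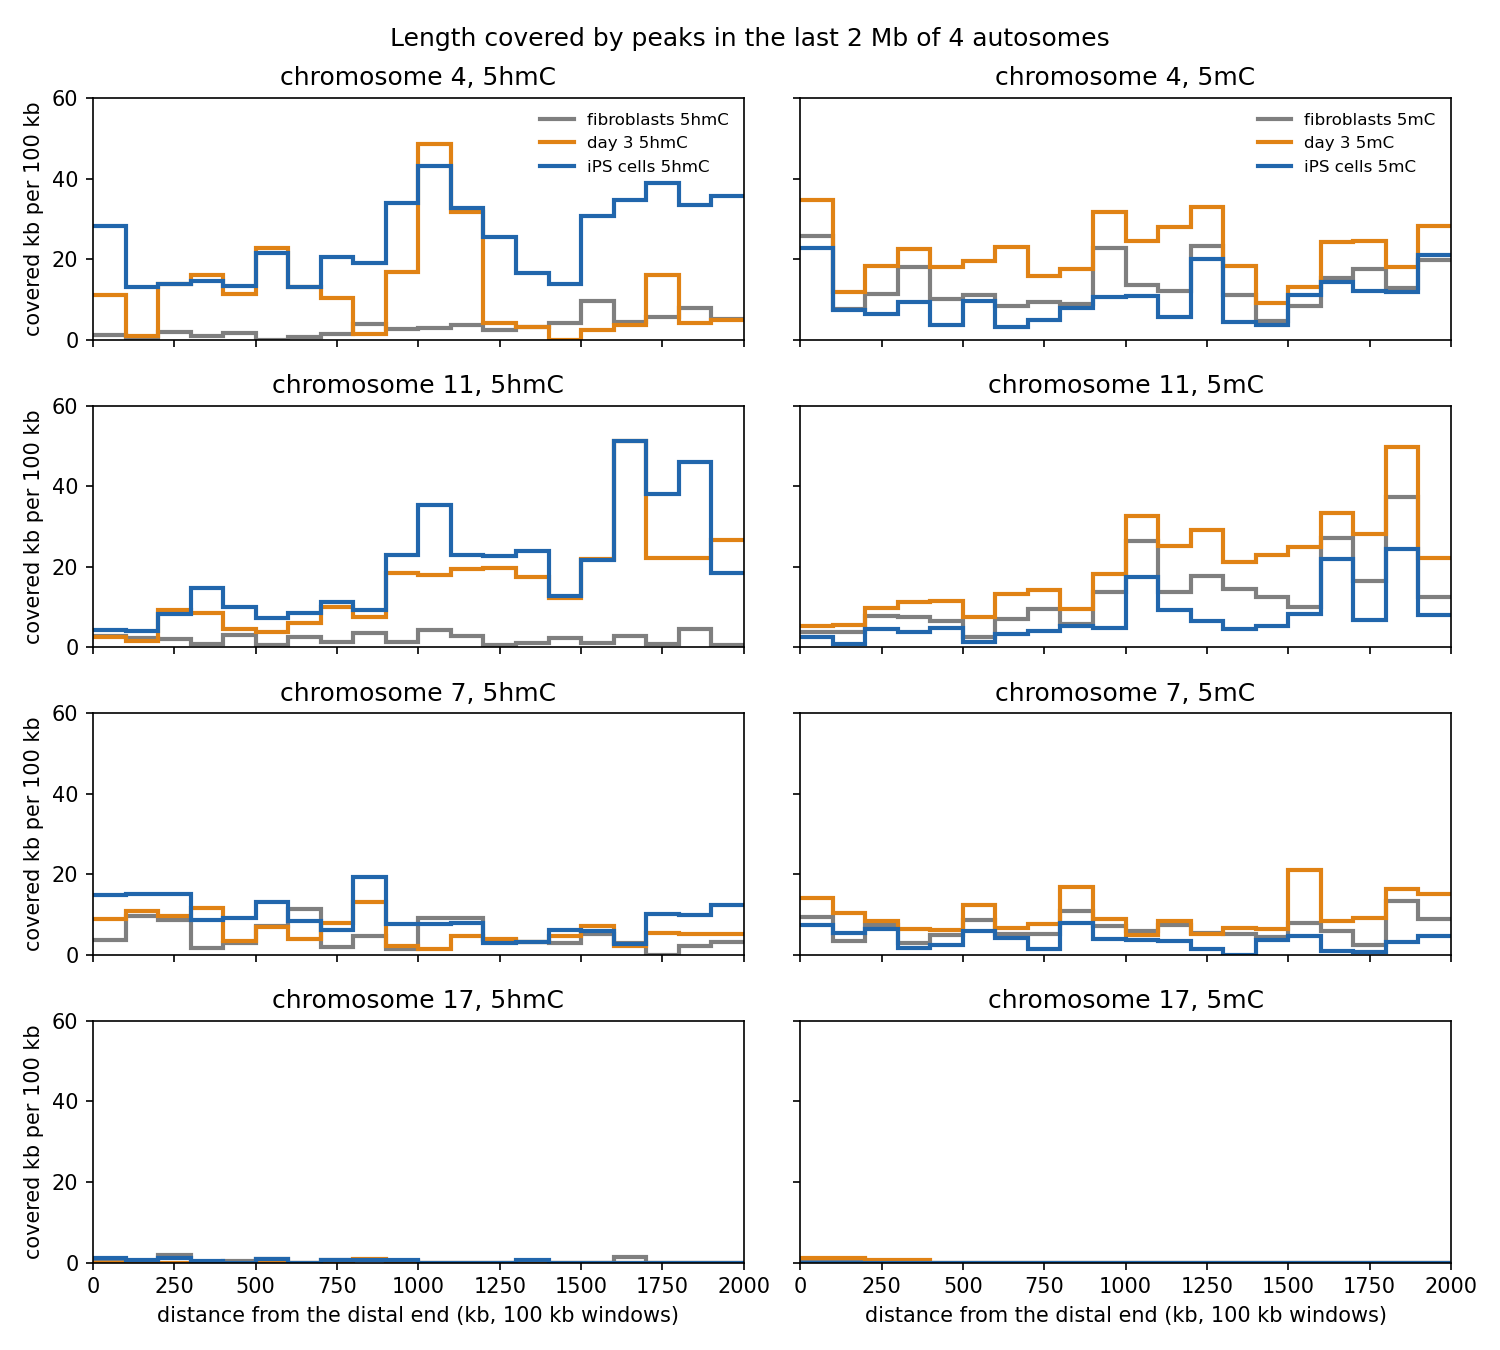
Kilobases covered by peaks per window of 100 kb over the last 2 Mb of chromosomes 4, 11, 7 and 17, by distance from the distal end, for 5hmC (left) and 5mC (right). Lines are the 3 stages, the fibroblast 5hmC line never exceeds 11.4 kb, and the chromosome 17 end is nearly empty of both marks.

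Scores, the peak caller's own values, were compared only within a list because they depend on depth. Peaks of the ends scored higher than those of the rest in fibroblast 5hmC and iPS 5mC. In fibroblast 5hmC the median was 97.5 in the ends and 85.6 in the rest. Of the 738 end peaks 360 scored at least 100, or 48.8% (45.2 to 52.4), against 40.7% in the rest, a difference of 8.09 percentage points (4.47 to 11.7). The end median was the higher on 12 of the 17 autosomes with at least 10 end peaks. In iPS 5mC the medians were 79.6 and 76.2, and 34.3% of the end peaks (31.2 to 37.6) scored at least 100 against 28.9%, but the end median was higher on only 7 of 14 autosomes.

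In the other lists the shares above 100 differed less from their rest. The medians were 115 and 117 for day-3 5hmC, 104 and 106 for iPS 5hmC, 94.3 and 90.3 for fibroblast 5mC, and 107 and 107 for day-3 5mC, in the ends and the rest. The shares with a score of at least 100 were 56.3% (53.8 to 58.8) in the ends and 57.3% in the rest for day-3 5hmC, and 51.7% (49.6 to 53.8) and 53.3% for iPS 5hmC. They were 45.9% (43.2 to 48.7) and 43.5% for fibroblast 5mC, and 53.5% (51.4 to 55.5) and 53.8% for day-3 5mC. In these 4 lists the interval of the difference included 0. For iPS 5hmC the end median was the higher on 4 of 19 autosomes, and with the rest weighted to the autosomes of the end peaks the difference was -2.47 points (-4.55 to -0.392).

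**Figure D4:**
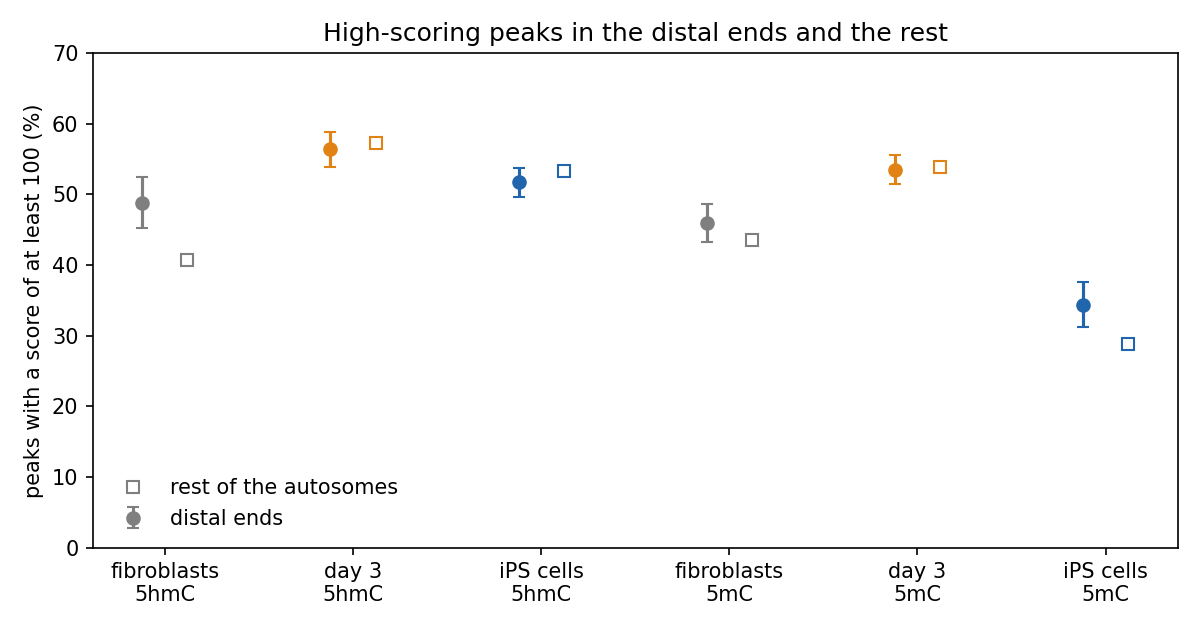
Share of peaks that scored 100 or more, by list, for the last 2 Mb of the autosomes (filled circles, bars are 95% Wilson intervals) and the rest (open squares). Fibroblast 5hmC (48.8% against 40.7%) and iPS 5mC (34.3% against 28.9%) are the lists in which the interval lies above the rest.

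Very high scores were more frequent in the ends in all 6 lists, in small numbers. A score of at least 1000 was reached by 1.36% of fibroblast 5hmC end peaks (0.738 to 2.48) and 0.532% of the rest. The shares were 3.88% (3.02 to 4.97) and 3.20% in day-3 5hmC, and 1.17% (0.800 to 1.71) and 0.592% in iPS 5hmC. In the 5mC lists they were 1.11% (0.662 to 1.85) and 0.463% in fibroblasts, 2.39% (1.83 to 3.11) and 1.53% at day 3, and 0.472% (0.184 to 1.21) and 0.115% in iPS cells. These peaks numbered 10, 59, 26, 14, 53 and 4 in the order above and lay on 2 autosomes (iPS 5mC) to 11 (day-3 5hmC). For day-3 5hmC the interval included the share of the rest. Peak widths were alike, with end medians of 832 bp (fibroblast 5hmC) to 936 bp (fibroblast 5mC) and rest medians of 815 to 937 bp. Widths of 3 kb or more were found in 1.43% of the fibroblast 5mC end peaks (0.905 to 2.25) and in 0.792% of the rest, and in iPS 5mC 1.06% (0.559 to 2.00) and 0.344%. The shares were 1.91% (1.33 to 2.72) and 1.69% in day-3 5hmC, and 1.76% (1.29 to 2.39) and 1.46% in iPS 5hmC. In day-3 5mC they were 1.31% (0.912 to 1.87) and 0.950%. For day-3 5hmC, iPS 5hmC and day-3 5mC the interval included the share of the rest. Fibroblast 5hmC had 0 such peaks among 738 in the ends, which by a limit of 3 counts allows a share of up to 0.407%, above the 0.0874% of the rest.

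The highest score reached in the ends was 3100 in each list, by 12 peaks in all on chromosomes 4, 11, 13 and 15. That value recurs, with 22 (iPS 5mC) to 250 (day-3 5hmC) autosomal peaks per list at exactly 3100 and 2 to 27 above it, so peaks at 3100 cannot be ranked among themselves. On chromosome 11, an iPS 5hmC peak of 10704 bp at chr11:120667989-120678692 had the score 3100 and was both the best and the widest of its list in the ends. Peaks of 4 other lists overlapped it, all but fibroblast 5hmC. The widest fibroblast 5mC peak, 6244 bp with a score of 2062.46, the widest iPS 5mC peak, 5106 bp with a score of 927.78, and one of the 3 day-3 5mC peaks at 3100, 5188 bp, lay inside it. The other day-3 5mC peaks with this score were on chromosomes 4 and 13. The best fibroblast 5hmC peak of the ends, chr11:120715245-120717787 with the score 3100, lay close by and overlapped peaks of all 5 other lists. The 5 day-3 5hmC peaks at 3100 lay on chromosomes 4 (1), 11 (2) and 15 (2), among them chr11:119797069-119801277, and the widest was chr11:120084501-120091985, 7485 bp with a score of 2862.28. The widest day-3 5mC peak, 6333 bp with a score of 2935.73, was at chr4:155029357-155035689.

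Chromosome 13 combined a sparse end with very strong peaks at its tip. Its last 2 Mb held 23, 42 and 39 5hmC peaks and 22, 59 and 14 5mC peaks at the 3 stages, with ratios of 0.280 to 0.688. The best fibroblast 5mC peak of all ends, chr13:120276046-120280356, and the best iPS 5mC peak, chr13:120276134-120280390, lay less than 8 kb from the end, both with the score 3100 and with overlapping peaks in all 5 other lists. In the last 100 kb of chromosome 13 the best scores were 1180.33, 662.81 and 2515.07 for 5hmC in fibroblasts, day-3 and iPS cells, and the recurring value of 3100 for 5mC at each stage. In the GRCm38.p6 gene order, chromosome 13 ends in Gm21818, AF067061, BC147527 and Tcstv3. Tcstv3 belongs to a family named for transcripts of the two-cell embryo.

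The last 100 kb were looked at separately, since the outermost peak lies there by construction. They held 33 fibroblast 5hmC, 40 day-3 5hmC, 74 iPS 5hmC, 44 fibroblast 5mC, 78 day-3 5mC and 35 iPS 5mC peaks. Relative to the rest of the autosomes the density was 1.00 (0.689 to 1.41) in fibroblast 5hmC, 0.440 (0.315 to 0.600) in day-3 5hmC and 0.540 (0.424 to 0.678) in iPS 5hmC. It was 0.537 (0.390 to 0.721), 0.598 (0.473 to 0.747) and 0.727 (0.506 to 1.01) in 5mC. The outermost peaks are counted in these ratios and raise them, to a degree that differs by list. Chromosomes 2, 4, 7, 11, 13 and 19 had a peak of every list there. Chromosomes 8, 12 and 14 had peaks of 1 list alone. On chromosome 1 the last 100 kb held 3, 2 and 3 5mC peaks and 0 5hmC peaks at the 3 stages. The outermost peaks came from iPS 5hmC on 6 autosomes, from fibroblast 5hmC and day-3 5mC on 4 each, and from the other lists on 1 or 2. On 11 of 19 autosomes no other list overlapped this peak, and on chromosome 11 all 6 did.

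Stage overlap was counted from 1 bp, and the share of the sequence that the other list covers is given beside it, since a denser list is met more often. Fibroblast 5hmC peaks of the ends overlapped day-3 5hmC peaks in 239 of 738 cases, or 32.4% (29.1 to 35.8), against 36.0% in the rest. Day-3 5hmC covered 4.42% of the ends and 5.25% of the rest. They overlapped iPS 5hmC in 64.5% (61.0 to 67.9) against 63.9%, where iPS 5hmC covered 6.11% and 7.74%. Day-3 5hmC end peaks overlapped iPS 5hmC in 46.1% (43.6 to 48.6) against 48.7%, and the difference shrank to -0.056 percentage points with a score of at least 100. With ends of 5 Mb it turned to 9.36 points.

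Counted from the iPS side, end peaks lay on fibroblast 5hmC more often than those elsewhere. Counted from fibroblast 5hmC, the shares were alike, at 64.5% in the ends and 63.9% in the rest. The iPS-side share thus largely restates the list lengths. iPS 5hmC had 3.01 times as many peaks as fibroblast 5hmC in the ends and 4.16 times in the rest. Of the 2220 iPS 5hmC end peaks, 483 overlapped a fibroblast 5hmC peak, or 21.8% (20.1 to 23.5), against 15.6% in the rest, and the end share was higher on 16 of 19 autosomes. Fibroblast 5hmC covered 1.69% of the ends and 1.47% of the rest. With the rest weighted to the autosomes on which the end peaks lie, the difference was 5.97 percentage points (4.30 to 7.73), against 6.14 without weights. It kept its sign under each alternative run, from 4.09 points with ends of 5 Mb to 9.99 with the same number of best-scoring peaks. Within this, 12.7% of the iPS end peaks (11.4 to 14.1) were shared with fibroblasts but not with day 3, against 8.34% in the rest, and 9.05% (7.93 to 10.3) occurred at all 3 stages, against 7.27%. The same direction was found for the other lists, chosen for mention after their values were seen. A fibroblast 5hmC peak was met by 16.0% of day-3 5hmC end peaks (14.3 to 18.0) against 13.2% in the rest, higher on 9 of 17 autosomes. For day-3 5mC the shares were 13.6% (12.3 to 15.1) and 10.7%, higher on 12 of 18. For iPS 5mC they were 23.3% (20.6 to 26.3) and 16.9%, higher on 11 of 14. With a score of at least 100 the iPS 5mC difference was 2.07 percentage points, and with the same number of best-scoring peaks that of day-3 5mC was 0.473. Counted from fibroblast 5hmC, the differences were -3.63 points (-6.94 to -0.136) for day-3 5hmC and -1.32 (-4.83 to 2.29) for day-3 5mC. For iPS 5mC it was 2.52 (-0.587 to 5.87). iPS 5hmC peaks without a counterpart at either earlier stage made up 55.0% (53.0 to 57.1) in the ends and 58.8% in the rest.

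The lower overlap of fibroblast with day-3 5hmC in the ends was a difference of -3.63 percentage points (-6.94 to -0.136). It kept its sign in each alternative run, but its interval included 0 in some. The interval excluded 0 without the last 100 kb (-4.38, -7.74 to -0.825) and with the rest weighted by autosome (-3.68, -6.96 to -0.221). With the same number of best-scoring peaks the difference was -2.73 (-4.95 to -0.126). It was -1.41 (-6.57 to 4.15) with ends of 1 Mb, -0.421 (-2.27 to 1.46) with 5 Mb, -3.18 (-7.51 to 1.64) with a score of at least 100, and -2.06 with an overlap of 50%, where the interval also included 0. When fibroblast 5hmC peaks were ranked by score into 3 equal groups, 22.2% of the end peaks in the lowest group overlapped day 3 against 25.6% in the rest. In the middle group the values were 23.2% (18.2 to 29.0) and 31.7%, and in the highest 46.4% (40.8 to 52.0) and 50.9%, so that only the middle group's interval lay below the rest. For the overlap with iPS 5hmC they were 40.9% (34.4 to 47.8) and 44.8% in the lowest group and 52.8% (46.4 to 59.1) and 59.9% in the middle one. In the highest group they were 89.4% (85.4 to 92.4) and 87.1%. Here too only the middle group's interval lay below the rest. The groups held 203, 233 and 302 of the 738 end peaks.

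Fibroblast 5mC peaks were found again in iPS cells more often in the pooled ends than in the rest. Fibroblast 5mC end peaks overlapped day-3 5mC in 1145 of 1261 cases, or 90.8% (89.1 to 92.3), against 89.7% in the rest. They overlapped iPS 5mC in 557 cases, or 44.2% (41.5 to 46.9), against 39.3%, although the iPS list covered 2.25% of the ends and 2.47% of the rest. The end share was higher on 7 of 14 autosomes with at least 10 such peaks and lower on 7, so the pooled difference was not shared by most ends. Day-3 5mC end peaks overlapped iPS 5mC in 30.6% (28.7 to 32.6) against 29.4%. They overlapped fibroblast 5mC in 51.0% (48.9 to 53.1) against 56.1%, a difference of -5.15 points (-7.25 to -3.06). This share was lower in the ends on 15 of 18 autosomes. Fibroblast 5mC covered 3.59% of the ends and 4.59% of the rest. Day-3 5mC had 1.76 times as many peaks as fibroblast 5mC in the ends and 1.59 times in the rest. At day 3, 42.5% of the end 5mC peaks (40.4 to 44.5) had no counterpart at either other stage, against 38.1% in the rest.

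The overlap of the marks within a stage depended on the side it was counted from and on the stage. In fibroblasts 22.2% of the 5hmC end peaks (19.4 to 25.4) lay on a 5mC peak, against 27.1% in the rest, with a lower share on 11 of 17 autosomes. 5mC covered 3.59% of the ends and 4.59% of the rest. This difference of -4.93 percentage points was -0.591 with a score of at least 100 and 4.33 with ends of 5 Mb. Counted from the 5mC side the order was the other way, with 12.9% of the 5mC end peaks (11.2 to 14.9) on a 5hmC peak against 11.0% in the rest, where 5hmC covered 1.69% of the ends and 1.47% of the rest. That difference of 1.91 points was 1.35 (-0.394 to 3.31) with the rest weighted by autosome and 1.22 (-0.512 to 3.19) without the last 100 kb. At day 3 the shares of 5hmC peaks on a 5mC peak were 43.0% (40.5 to 45.5) and 40.6%, and in iPS cells 26.1% (24.3 to 27.9) and 23.5%. The interval of the day-3 difference, 2.42 points (-0.0654 to 4.94), included 0, and the end share was lower on 10 of 17 autosomes. With the rest weighted by autosome the day-3 difference was 0.610 (-1.86 to 3.11). In iPS cells the end share was nevertheless lower on 12 of 19 autosomes, with ends of 1 Mb the pooled difference was -0.113 points, and with the rest weighted by autosome it was 1.76 (-0.0253 to 3.63).

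Fibroblast 5mC peaks of the ends met later 5hmC about as often at day 3, with 30.7% (28.2 to 33.3) against 30.9%, and somewhat less often in iPS cells, with 64.6% (61.9 to 67.1) against 67.3%, a difference that turned to 3.86 points with ends of 5 Mb. Later 5hmC covered less of the ends than of the rest, with 4.42% and 5.25% at day 3 and 6.11% and 7.74% in iPS cells. For iPS 5mC the covered shares were 2.25% and 2.47%. Fibroblast 5mC peaks without 5hmC in fibroblasts, 1098 peaks in the ends, differed more in their iPS state. In iPS cells 29.7% of them (27.1 to 32.5) had 5hmC without 5mC, against 37.5% in the rest, a difference of -7.86 percentage points (-10.5 to -5.07). The share was lower in the ends on 11 of 14 autosomes, and with the rest weighted by autosome the difference was -8.22 points. With ends of 5 Mb it shrank to -0.424 points (-1.75 to 0.924), and with the same number of best-scoring peaks to -3.75 (-7.06 to 0.0833). Both marks were found in 32.1% (29.4 to 34.9) against 27.5%, and neither in 28.7% (26.1 to 31.4) against 25.2%. Seen from the iPS side, 35.8% of the 5hmC end peaks (33.8 to 37.8) lay on a fibroblast 5mC peak against 40.0% in the rest, with a lower share on 17 of 19 autosomes. Fibroblast 5mC covered 3.59% of the ends and 4.59% of the rest. The difference was -1.11 points with a score of at least 100 and 4.06 with ends of 5 Mb. At day 3 the states of the 1098 peaks were alike, with both marks in 25.2% against 25.5% and 5mC alone in 65.3% against 64.0%.

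**Figure D5:**
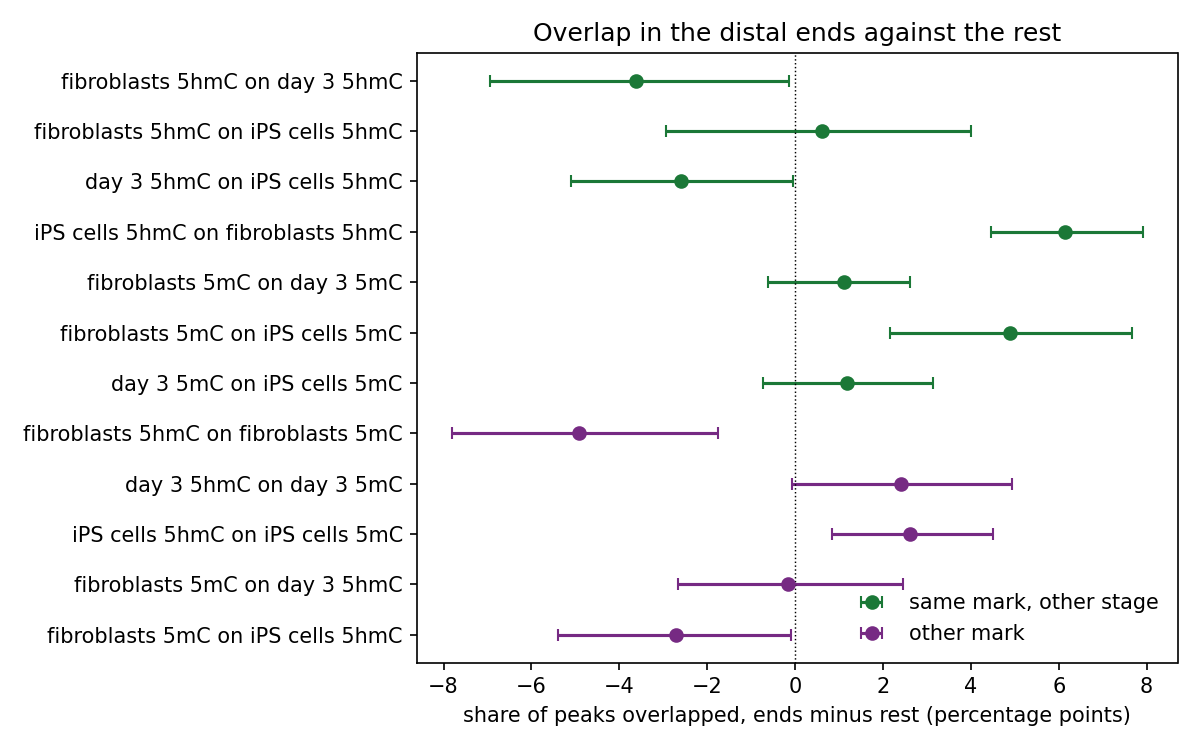
Difference in the share of overlapping peaks between the last 2 Mb and the rest of the autosomes, in percentage points, for 7 comparisons of stages (green) and 5 of the marks (purple). Points are single libraries, bars are 95% intervals for counting error, and among these 12 the largest positive difference is that of iPS on fibroblast 5hmC, at 6.14 points. Of the counts from a later to an earlier stage of the same mark, only this one is shown. Among pairs not shown, iPS 5mC on fibroblast 5hmC differed by 6.46 points and day-3 on fibroblast 5mC by -5.15.

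Peaks of all lists that overlap were joined into 4004 regions in the ends and 291122 in the rest. Regions found in 1 list made up 47.1% in the ends (45.6 to 48.6) and 46.1% in the rest. Regions with peaks of all 6 lists numbered 58, or 1.45% (1.12 to 1.87), against 1.35%. Of these 58, the end of chromosome 11 held 12 among 455 regions, chromosome 15 held 8 among 399, chromosome 2 held 8 among 297, chromosome 4 held 7 among 550 and chromosome 7 held 7 among 362. The end of chromosome 1 held 4 among only 103. Chromosomes 3, 8, 10, 12, 14, 17 and 18 had none, with 21 (chromosome 17) to 218 (chromosome 8) regions in their ends. The share of regions marked in all lists was close to that of the rest. CpG content, repeats and assembly gaps of the ends were not measured here, and their part in these differences was not tested.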

How the data were processed

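Each of the 6 libraries has 1 deposited peak list with a score per peak, a value that the authors' peak caller gave, with a minimum of 50 to 50.01 by list. CASAVA 1.8, Bowtie 0.12.7, MACS 1.4.1 and build mm9 are named, per the submitters' processing notes. Its settings, control library and depth were not given in the sources used here. Lists were grouped by title into 3 stages and 2 marks, with 1 library each, so no test was run. Peaks of the last 2 Mb of each autosome were set against the rest of the same autosomes, from the smallest peak start to the largest peak end. Density ratios carry exact binomial and shares 95% Wilson intervals, a count of 0 a limit of 3 counts, and differences of shares carry Newcombe intervals. Overlap counted from 1 bp. The counting was tested on simulated data, with 0 errors in 18 runs. The tools were scipy 1.17.1, pandas 2.3.3, numpy 2.4.6, matplotlib 3.10.9 and Python 3.11.15. Coordinates are on mm9, counted from 1.

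The ends, comparisons and alternatives were chosen with earlier results of these data known. Named are the 3 autosomes with the highest and the 3 with the lowest density ratio per list, per mark the 100 kb windows with the 3 greatest gains and losses of covered length, the best and widest peak per list, and the outermost peaks. Other named values, the score limit of 1000 and the split by score were chosen after the values were seen. Alternatives were ends of 1 and 5 Mb, no peaks from the last 100 kb, a score of at least 100, the 41931 best-scoring peaks per list, an overlap of 50%, covered length, each autosome left out, and, added later, the rest weighted by autosome and the same end lengths and score limit for the folds between stages. No sequence is printed, since no mm9 genome was used here.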

Additional observations from a re-analysis of the deposited data

How the results depend on the processing

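Values are end-to-rest density ratios, or differences between end and rest in percentage points. With ends of 1 Mb the density ratios were 0.911 (fibroblast 5hmC, now below 1), 0.685 (day-3 5hmC), 0.596 (iPS 5hmC), 0.548 (fibroblast 5mC), 0.639 (day-3 5mC) and 0.625 (iPS 5mC). With 5 Mb they were 1.68, 1.24, 1.46, 1.54, 1.47 and 1.68, because the longer end takes in the dense band. Without chromosome 4 they were 0.704 (iPS 5hmC), 0.670 (fibroblast 5mC), 0.755 (day-3 5mC) and 0.745 (iPS 5mC). Without chromosome 11 day-3 5hmC was at 0.756, and without chromosome 7 fibroblast 5hmC was at 1.02. Without chromosome 17 the ratios were 0.889 (day-3 5hmC), 0.858 (iPS 5hmC), 0.820 (fibroblast 5mC), 0.905 (day-3 5mC) and 0.940 (iPS 5mC). With a score of at least 100 fibroblast 5hmC was at 1.34 and iPS 5mC at 1.05, and iPS 5hmC was at 0.776 when lists were reduced to 41931 peaks by score. Covered length and leaving out the last 100 kb changed no density ratio beyond its interval.

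Overlap differences depended on the end length. With 1 Mb and 5 Mb they were -1.07 and 10.2 for day-3 5hmC on 5mC, -0.113 and 5.36 for iPS 5hmC on 5mC, and 0.780 and 0.839 for fibroblast 5mC on day-3 5hmC. They were -6.68 and 3.86 for fibroblast 5mC on iPS 5hmC, -5.75 and 9.36 for day-3 on iPS 5hmC, -2.79 and 5.41 for fibroblast on iPS 5hmC, and -0.083 and 4.28 for day-3 on iPS 5mC. With 5 Mb fibroblast 5hmC on 5mC was at 4.33. With a score of at least 100 it was at -0.591, fibroblast 5mC on day-3 5hmC at 1.64, day-3 on iPS 5hmC at -0.056 and fibroblast on iPS 5mC at 7.95. With equal numbers of peaks fibroblast 5mC on day-3 5hmC was at 1.07, day-3 on iPS 5mC at 3.15 and fibroblast on day-3 5mC at 6.23. iPS 5hmC on fibroblast 5mC was at -7.19 with 1 Mb, 4.06 with 5 Mb, -1.11 with a score of at least 100 and -0.207 with equal numbers. Day-3 5mC on fibroblast 5hmC was at 4.98 with 1 Mb and 0.473 with equal numbers, and iPS 5mC on fibroblast 5hmC at 2.07 with a score of at least 100. iPS on fibroblast 5hmC was at 4.09 with 5 Mb, 8.32 with a score of at least 100 and 9.99 with equal numbers. Fibroblast 5mC on 5hmC was at 4.57 with 1 Mb. The share of fibroblast 5mC peaks that had 5hmC without 5mC in iPS cells differed by -10.6 with 1 Mb, -0.424 with 5 Mb and -3.75 with equal numbers. With an overlap of 50% fibroblast 5mC on day-3 5hmC was at 1.07. The share with a score of at least 100 differed by -2.98 (day-3 5mC) and -5.16 (iPS 5hmC) with 1 Mb, and by 0.394 (day-3 5hmC), 3.67 (day-3 5mC) and 4.49 (iPS 5hmC) with 5 Mb. Weighting the rest by autosome turned no sign among the score and overlap differences it was run on. The intervals for iPS 5hmC on 5mC, 1.76 (-0.0253 to 3.63), and fibroblast 5mC on 5hmC, 1.35 (-0.394 to 3.31), then came to include 0. Relative to the rest, the end fold from fibroblasts to day 3 was 0.613 (5hmC, score of at least 100) and 0.955 (5mC, 5 Mb). From day 3 to iPS cells it was 0.870 with 1 Mb and 1.18 with 5 Mb for 5hmC, and 0.977 with 1 Mb, 1.14 with 5 Mb and 1.24 with the score limit for 5mC. From fibroblasts to iPS cells it was 0.654, 0.868 and 0.585 for 5hmC, and 1.29 with the score limit for 5mC. The causes were not tested apart from the end length.

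No paired analysis was possible because there is 1 library per stage and mark. Depth is unknown, so list lengths mix the mark with the depth. The end of an autosome is that of the peaks, not of the assembly.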
